A study of Mus musculus with 7 samples.

Results

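Pbsn, Msmb, Tgm4, Azgp1, Fkbp5, Tmprss2, Ndrg1 and Hoxb13 are genes of the prostate that androgen regulates or that mark androgen-dependent epithelium. They were followed in prostates of Nkx3.1-/- mice that drank the antioxidant N-acetylcysteine (NAC). The 8 genes were chosen by name and make up 8 of the 18938 genes measured. Each of them is read by 1 probe set of the Affymetrix Mouse Gene 1.0 ST array. Where a gene had several probe sets, the one with the highest mean over the arrays stood for it.

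RNA came from 2 groups of mice, with 1 mouse on each array. The NAC group (4 arrays, replicates 1 to 4) was given 5 mM NAC in the drinking water for 13 weeks after weaning. The vehicle group (3 arrays, replicates 1, 2 and 4) drank plain water over the same 13 weeks, and all mice were 16 weeks old. Both groups were homozygous null for Nkx3.1, a homeobox gene of the prostate epithelium, on a recombinant inbred B6/129 background, and both received BrdU before death. Androgen was not manipulated in either group, so the arrays say nothing of the genes' response to androgen itself. Littermates were divided between cages by treatment, so cage and treatment cannot be told apart. The labels call the tissue whole prostate while the extraction protocol names the anterior lobe. In RNA of a whole tissue, fewer cells of a type and less RNA per cell cannot be told apart.

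Androgens enter prostate cells and bind the androgen receptor, which then pairs on DNA and switches on nearby genes. In luminal epithelial cells many of these genes encode proteins secreted into the seminal fluid. Castration lowers their transcripts, which is why they are widely read as a measure of androgen receptor activity. Several of them also answer other signals: the glucocorticoid receptor binds closely related DNA sites, and low oxygen raises Ndrg1.

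All values below are log2 intensities as deposited, and a fold change is the NAC mean minus the vehicle mean on that scale. The deposited values differ little between arrays: each pair of arrays correlated across genes with r between 0.995 and 0.998, and the median gene spanned 0.25 over the 7 arrays. Of the 18938 genes, 0 passed an adjusted p of 0.05 in limma's moderated test (0%; smallest adjusted p = 0.827), and 836 (4.41%) had an unadjusted p under 0.05. NAC replicate 3 stood apart in genes of other tissues. The lung surfactant gene Sftpc read 10.51 on it and at most 5.26 on the other arrays. Summed over 7 lung genes, the log2 signal spanned 8.78 to 11.6 in NAC and 8.73 to 8.80 in vehicle. On NAC replicate 1 the summed log2 signal of 10 leukocyte genes was 11.77, against 10.68 to 11.18 on the other arrays. Of these genes, 4 were highest and 2 lowest on that array. The leukocyte gene Lyz2 read 11.02 there and at most 10.13 elsewhere. Of 5 basal epithelial genes, 4 were highest there. The part of these differences in the values of the genes followed here was not tested. Markers of luminal epithelium, the cells that express the secreted genes, were measured on all arrays. Their summed log2 signal lay between 14.77 and 14.88 in NAC and between 14.79 and 14.82 in vehicle. Epcam, an adhesion protein of epithelia, read 11.70, 11.70, 11.62 and 11.72 in NAC and 11.70, 11.71 and 11.71 in vehicle.

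The promoters of 5 of the 8 genes were found in the RefSeq table of the mouse build GRCm38.p6, each as 250 bases before to 50 bases after the start of transcription. They were searched on both strands for AGAACA, the hexamer core of the DNA site that the androgen and glucocorticoid receptors share, which reads TGTTCT on the other strand. They were searched on the gene's strand for the TATA box, as TATAAA. The windows of 3 secreted genes are shown because these held a match, with the matches in capitals. That of Azgp1 is chr5:137981271-137981570 on the plus strand, that of Pbsn chrX:77853451-77853750 on the minus strand and that of Tgm4 chr9:123034491-123034790 on the plus strand.
Azgp1: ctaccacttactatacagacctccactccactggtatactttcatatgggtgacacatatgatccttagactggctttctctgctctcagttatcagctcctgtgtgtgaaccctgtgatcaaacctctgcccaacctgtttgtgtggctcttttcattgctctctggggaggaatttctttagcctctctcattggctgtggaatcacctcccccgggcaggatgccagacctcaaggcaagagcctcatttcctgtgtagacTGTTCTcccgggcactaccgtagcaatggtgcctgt
Pbsn: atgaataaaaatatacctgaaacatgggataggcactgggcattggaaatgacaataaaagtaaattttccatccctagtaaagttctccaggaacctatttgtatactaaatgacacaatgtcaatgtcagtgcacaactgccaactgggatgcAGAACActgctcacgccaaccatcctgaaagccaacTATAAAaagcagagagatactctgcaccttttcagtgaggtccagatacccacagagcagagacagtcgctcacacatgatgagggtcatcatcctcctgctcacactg
Tgm4: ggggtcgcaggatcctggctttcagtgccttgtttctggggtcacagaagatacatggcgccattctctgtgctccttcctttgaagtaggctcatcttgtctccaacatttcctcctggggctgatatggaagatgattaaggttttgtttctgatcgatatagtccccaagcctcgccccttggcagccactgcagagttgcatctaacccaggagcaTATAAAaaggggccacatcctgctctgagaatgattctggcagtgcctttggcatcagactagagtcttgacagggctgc

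Azgp1 held TGTTCT at bases 15 to 20 after the start, and Pbsn held AGAACA between bases -95 and -90. The TATA box lay between bases -59 and -54 in Pbsn and between -30 and -25 in Tgm4. The windows of Fkbp5 and Tmprss2 held neither. Over 32851 promoter windows of the same length, 19.0% held the hexamer on either strand and 8.32% the TATA box, so a match is a common feature of such windows.

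None of the 8 genes passed the test for a difference between NAC and vehicle, and their changes were small. The fold changes ran from -0.10 to 0.11 with a median of 0.0043, beside a median over all genes of -0.00. They lay above 0 in 5 genes and below 0 in 3, against 9377 and 9561 of all genes. Azgp1 had an unadjusted p under 0.05, with a lower value in NAC, so that the count was 1 of 8 genes. Among all genes 1.89% passed that mark as higher and 2.53% as lower. Its NAC and vehicle arrays also did not overlap, which held for 1.29% of all genes as higher in NAC and 2.18% as lower, or 3.47% together. The arrays of the other 7 genes overlapped.

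**Figure D1:**
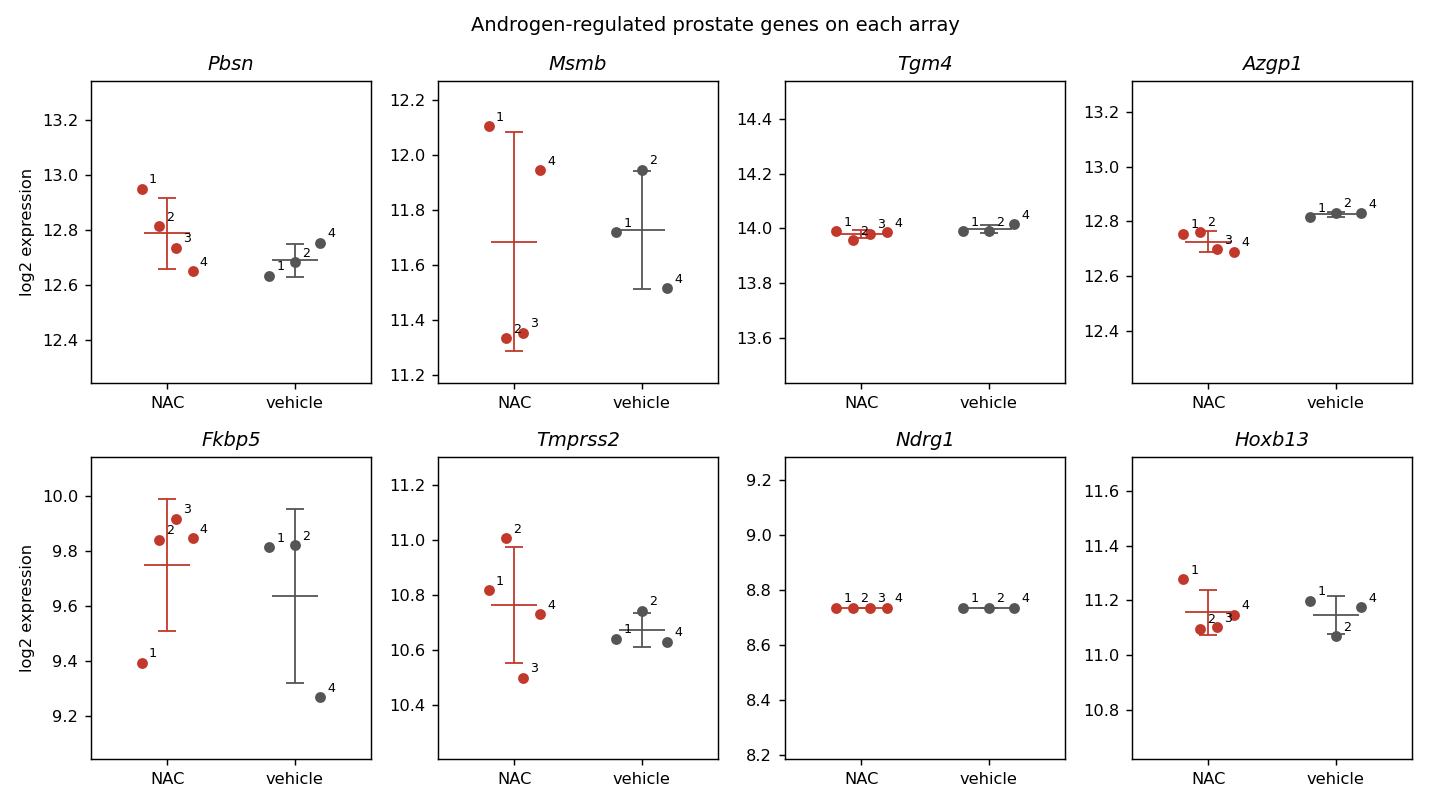
Log2 intensity of each of the 8 genes on every array (vertical axis, its own scale in each panel), with NAC left and vehicle right. Points are arrays, 1 mouse each, and bars are group means; the groups stand clear of each other in the panel of Azgp1 alone.

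**Figure D2:**
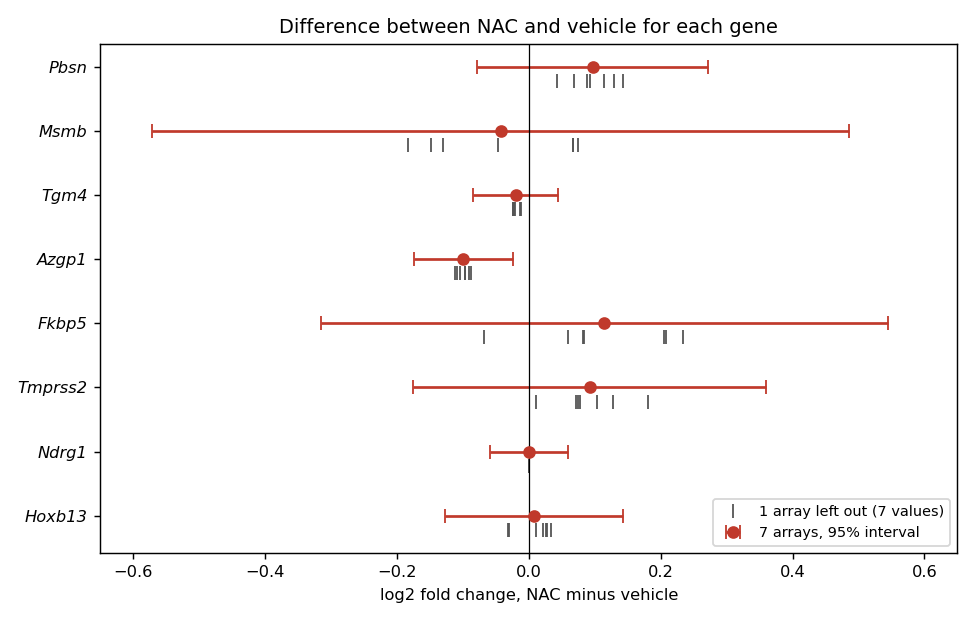
Fold change of the 8 genes, NAC minus vehicle on the log2 scale (horizontal axis). Points are limma estimates from 4 NAC and 3 vehicle arrays with their 95% confidence intervals, and small ticks are the values with 1 array left out; the interval of Azgp1 (-0.17 to -0.02) lies below 0 and the other 7 include 0.

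The secreted proteins come first. Probasin (Pbsn) is a lipocalin of the prostate fluid whose promoter is used to drive transgenes in prostate epithelium. It read 12.95, 12.81, 12.74 and 12.65 in NAC and 12.63, 12.68 and 12.75 in vehicle. NAC replicates 1 and 2 were above every vehicle array, while the other two lay among them. The means were 12.79 ± 0.13 in NAC (SD, n = 4) and 12.69 ± 0.060 in vehicle (SD, n = 3). The fold change of 0.10 had a 95% interval of -0.08 to 0.27 (limma adjusted p = 0.827). Without NAC replicate 1 it was 0.0425, and with any 1 array left out it reached at most 0.14.

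Msmb encodes beta-microseminoprotein, an abundant small protein of seminal fluid, and of the 8 genes it varied most from mouse to mouse. It read 12.10, 11.33, 11.35 and 11.94 in NAC and 11.72, 11.95 and 11.52 in vehicle. The NAC arrays held both the highest and the lowest values, with all vehicle arrays between them. Its span of 0.77 was exceeded by 2.89% of all genes. The means were 11.68 ± 0.40 in NAC (SD, n = 4) and 11.73 ± 0.22 in vehicle (SD, n = 3), and the fold change of -0.04 had an interval of -0.57 to 0.49 (limma adjusted p = 0.975). A change of either sign within that interval could not be seen with these arrays, and the sign itself turned when single arrays were left out.

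Tgm4 is the prostate transglutaminase, which cross-links seminal vesicle proteins into the copulatory plug. It read 13.99, 13.96, 13.98 and 13.99 in NAC and 13.99, 13.99 and 14.02 in vehicle. Its probe set held the highest value of all genes on each of the 7 arrays, at the top of the array's scale. The fold change was -0.02 (interval -0.08 to 0.04, limma adjusted p = 0.881). The authors quantile-normalized the arrays, which brings the highest probe values of all arrays to one level; its part in the small spread was not tested.

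Azgp1, the zinc-alpha-2-glycoprotein, is a secreted protein with the fold of an MHC class I molecule and is known for mobilizing lipid. It read 12.76, 12.76, 12.70 and 12.69 in NAC and 12.82, 12.83 and 12.83 in vehicle. Every NAC array was below every vehicle array, and the 3 vehicle arrays were nearly equal. The means were 12.73 ± 0.037 in NAC (SD, n = 4) and 12.83 ± 0.0089 in vehicle (SD, n = 3). That is a fold change of -0.10 (SE 0.03, interval -0.17 to -0.02), or 0.933 times the vehicle intensity. Its unadjusted p of 0.0166 ranked 175 of 18938 genes, and its limma adjusted p was 0.827.

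The genes whose pattern over the 7 arrays was most like that of Azgp1 were taken from 1758 genes that spanned at least 0.5, with predicted genes, clones and large receptor families passed over. They were Usp18 (r = 0.98), Zfp455 (r = 0.946) and Herc6 (r = 0.935). These values describe 7 arrays in 2 groups that differ, and with each group's mean taken off they were 0.902, 0.916 and 0.863. Usp18, an interferon-induced protease that removes ISG15, read 7.79, 7.90, 7.55 and 7.52 in NAC and 8.11, 8.39 and 8.35 in vehicle. Herc6, an interferon-induced ligase of the ISG15 system in mice, read 7.13, 7.22, 6.81 and 6.98 in NAC and 7.26, 7.41 and 7.33 in vehicle. Zfp455 read at most 5.89 in NAC and at least 5.92 in vehicle. Usp18, Zfp455 and Herc6 were thus all lower on every NAC array than on every vehicle array. They were picked for likeness to Azgp1, whose groups did not overlap, so this follows in part from the choice.

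Of 8 measured genes of the seminal vesicle, the gland that lies against the anterior prostate, 0 passed the test. All 8 had fold changes below 0, with a median of -0.71. In 4 (Svs3a, Svs3b, Svs4 and Svs6) every NAC array was below every vehicle array, beside 2.18% of all genes. Without NAC replicate 3 there were 6 below 0 and 2 above, with a median of -0.66. Svs4, a major seminal vesicle secretory protein, read 10.38, 12.17, 11.72 and 11.66 in NAC and 12.40, 12.43 and 12.72 in vehicle. The summed log2 signal of the 8 genes spanned 13.02 to 14.98 in NAC and 14.42 to 14.78 in vehicle. It was lowest on NAC replicate 1 (13.02), where Azgp1 was 12.76, and highest on NAC replicate 4 (14.98), where Azgp1 was 12.69. The sum hides unlike genes: on NAC replicate 4, Svs2 (13.53), Pate4 (11.43) and Svs1 (5.25) had their highest values. On the same array Svs3a, Svs3b, Svs4 and Svs6 were below every vehicle array, as Azgp1 was. The part of these genes in the Azgp1 values was not tested.

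**Figure D3:**
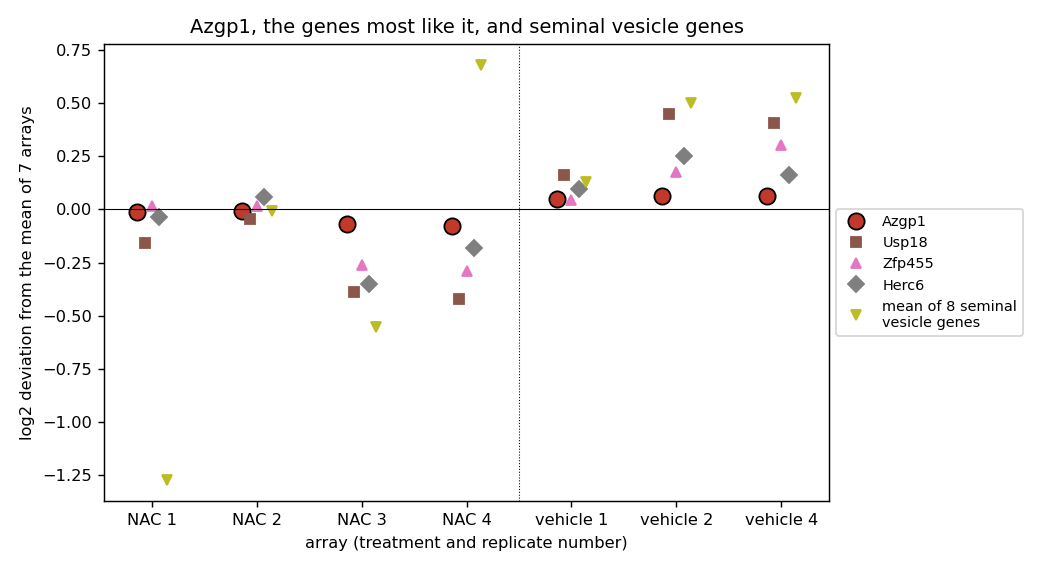
Deviation of Azgp1, its most alike genes and the mean of the seminal vesicle genes from their mean over 7 arrays (vertical axis, log2), by array (horizontal axis, NAC left of vehicle). Points are single arrays. Azgp1 and the 3 genes picked for likeness to it lie lower on all 4 NAC arrays than on all 3 vehicle arrays. The seminal vesicle mean is lowest on NAC replicate 1 and highest on NAC replicate 4.

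Fkbp5 encodes an FK506-binding cochaperone of Hsp90 that holds steroid receptors in complexes and that androgen, glucocorticoid and progesterone all induce. It read 9.39, 9.84, 9.92 and 9.85 in NAC and 9.81, 9.82 and 9.27 in vehicle. One array of each group, NAC replicate 1 and vehicle replicate 4, lay well below the rest, which kept within 9.81 to 9.92. The means were 9.75 ± 0.24 in NAC (SD, n = 4) and 9.63 ± 0.32 in vehicle (SD, n = 3). The fold change of 0.11 had an interval of -0.31 to 0.54 (limma adjusted p = 0.895). It was 0.23 without NAC replicate 1 and -0.07 without vehicle replicate 4, so leaving out that 1 vehicle mouse turned its sign.

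The same 2 arrays were the lowest in 4 of 8 measured genes that glucocorticoid induces in many tissues: Per1, Tsc22d3, Dusp1 and Zbtb16. Among all genes these arrays were the lowest pair in 3.43%. Per1, a clock gene with a glucocorticoid response element, read 8.65, 9.01, 9.12 and 9.18 in NAC and 9.08, 9.08 and 8.87 in vehicle. Tsc22d3, the glucocorticoid-induced leucine zipper, read 9.96, 10.11, 10.23 and 10.15 in NAC and 10.17, 10.27 and 9.98 in vehicle. Zbtb16, a zinc finger repressor that both androgen and glucocorticoid induce, read 11.46, 11.66, 11.63 and 11.63 in NAC and 11.62, 11.56 and 11.42 in vehicle. These genes were picked by that pair of low arrays, which holds 1 array of each treatment. Sgk1, Pdk4 and Errfi1 were instead lowest on NAC replicate 1 and vehicle replicate 1, and Cebpd on NAC replicates 1 and 3.

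This way of reading the arrays was chosen after the values of Fkbp5 were seen, and it carries no test. Without NAC replicate 3 the count was 5 of 8, with Cebpd added, beside 4.74% of all genes. Among 22 other measured androgen-induced genes the pair was lowest in 1, Zbtb16, which both lists hold. It was lowest in 0 of 12 other prostate epithelial genes and in 1 of 10 hypoxia-induced genes, Vegfa. Between the treatments, 3 of the 8 glucocorticoid-induced genes had fold changes above 0 and 5 below, with a median of -0.02, and 0 passed. The genes most like Fkbp5 over the arrays were F2r, the thrombin receptor (r = 0.951), Neto2 (r = 0.907) and Ccn2, connective tissue growth factor (r = 0.886), and these values rest on the same pair of low arrays.

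**Figure D4:**
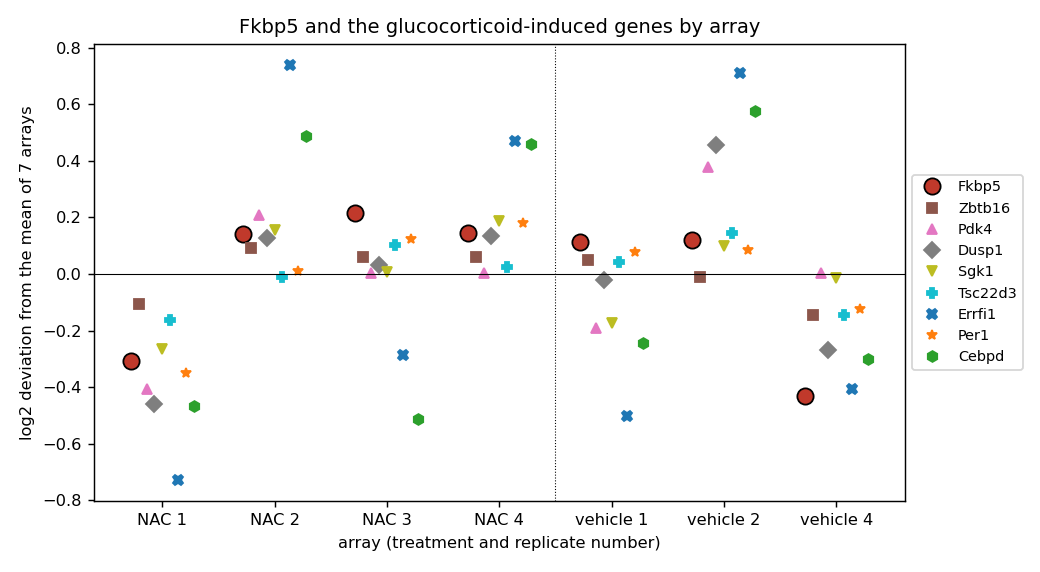
Deviation of Fkbp5 and 8 glucocorticoid-induced genes from their mean over 7 arrays (vertical axis, log2), by array (horizontal axis, NAC left of vehicle). Points are single arrays; Fkbp5 is low on NAC replicate 1 and vehicle replicate 4, as are Per1, Tsc22d3, Dusp1 and Zbtb16.

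Tmprss2 is a serine protease anchored in the membrane of luminal cells, and in human prostate cancer its androgen-driven promoter is often fused to ERG. It read 10.82, 11.01, 10.50 and 10.73 in NAC and 10.64, 10.74 and 10.63 in vehicle. The NAC arrays held the highest value, on replicate 2, and the lowest, on replicate 3, around vehicle arrays that were close together. The means were 10.76 ± 0.21 in NAC (SD, n = 4) and 10.67 ± 0.06 in vehicle (SD, n = 3), and the fold change of 0.09 had an interval of -0.18 to 0.36 (limma adjusted p = 0.867). Replicate 3 is the array with lung, fat and muscle transcripts. Without it the fold change was 0.18 (limma adjusted p = 0.854), and without replicate 2 it was 0.01. Mal2, a protein of apical transport in epithelia, followed Tmprss2 most closely (r = 0.982). Next came Sprr1a (r = 0.969) and Lce6a (r = 0.964), which encode proteins of the cornified envelope. These are the highest values among 1758 genes over only 7 arrays, and they carry no test.

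Ndrg1, a cytoplasmic protein that androgen, low oxygen and differentiation raise, hardly varied. It was 8.73 on each array: 6 of the 7 arrays hold one identical value and NAC replicate 2 differs from it only beyond the second decimal. Such repeated values are common in these data, with values equal to 6 decimals on 3 or more arrays in 7568 of the 18938 genes and 5 or more in 1420. The fold change of 0.00 (SE 0.02) therefore has little spread of its own to be set against. The genes that came out most like it, such as Mpp6 (r = 0.981), rest on NAC replicate 2 alone. Of 10 hypoxia-induced genes, 4 had fold changes above 0 and 6 below, with a median of -0.04, and 0 passed. Adm, which encodes the vasodilator adrenomedullin, read 7.64, 7.12, 7.59 and 7.58 in NAC and 7.76, 7.67 and 7.64 in vehicle.

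Hoxb13 is a homeobox factor of the hind end of the body that is kept on in prostate epithelium and binds the androgen receptor. It read 11.28, 11.10, 11.10 and 11.15 in NAC and 11.20, 11.07 and 11.18 in vehicle. NAC replicate 1 was above every vehicle array, and the other NAC arrays lay within the vehicle range. The fold change of 0.01 had an interval of -0.13 to 0.14 (limma adjusted p = 0.981). Ptch1, the Hedgehog receptor, was most like it over the arrays (r = 0.905).

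The relatives of these genes also gave 0 calls. Of 7 other transglutaminases, 6 had fold changes above 0 (median 0.10). The largest was that of F13a1, the coagulation factor XIII A chain found in macrophages, which read 8.02, 7.76, 8.25 and 7.80 in NAC and 7.59, 7.66 and 7.80 in vehicle. Of 12 measured FK506-binding proteins 7 were above 0 and 5 below (median 0.01), of 15 transmembrane serine proteases 10 and 5 (median 0.03), of 3 other NDRG genes 3 and 0 (median 0.05), and of 11 genes of the HoxB cluster and group 13 there were 3 and 8 (median -0.02). Fkbp2, a chaperone of the endoplasmic reticulum, was the one relative whose groups did not overlap, beside 3.47% of all genes. It read 12.26, 12.24, 12.23 and 12.10 in NAC and 12.32, 12.27 and 12.34 in vehicle.

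No pair of the 8 genes passed a test for moving together over the mice. Among 28 pairs, 14 correlated positively and 14 negatively over the 7 arrays. In an exact permutation test 0 passed (smallest adjusted p = 0.79 for Pearson's r and 0.378 for Spearman's rho). Pairs with Ndrg1 could not pass, because 6 of its 7 arrays hold one identical value. Their smallest unadjusted p for Pearson's r in that test was 0.143 (with Tgm4 and with Tmprss2). The signs of these pairs rest on NAC replicate 2 alone. The highest array differed between genes: Pbsn, Msmb and Hoxb13 peaked on NAC replicate 1, while Tgm4 peaked on vehicle replicate 4. On NAC replicate 3, Msmb (-0.35) and Tmprss2 (-0.22) lay furthest below their mean over all arrays, and Fkbp5 (0.22) lay above its own. Azgp1 (-0.070), Hoxb13 (-0.049), Pbsn (-0.0097) and Tgm4 (-0.0063) were closer to theirs. Ndrg1 was within 0.001 of its mean. With NAC replicate 1 left out, 3 genes did not overlap between the groups (Fkbp5 higher, Tgm4 and Azgp1 lower), beside 6.29% of all genes. The gaps were narrow in Tgm4 (at most 13.987 in NAC, at least 13.99 in vehicle) and in Fkbp5 (at least 9.841 in NAC, at most 9.821 in vehicle). Leaving out any other array gave 1 gene, Azgp1.

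Further genes of androgen action were taken from lists. Of 9 measured genes that act with the androgen receptor (cofactors, chaperones and the related glucocorticoid receptor), 8 had fold changes below 0 and 1 above, with a median of -0.06, and 0 passed. Nr3c1, the glucocorticoid receptor, had the smallest p among them and read 8.14, 7.98, 8.11 and 7.98 in NAC and 8.24, 8.11 and 8.16 in vehicle (fold change -0.12, limma adjusted p = 0.827). Ptges3, the p23 cochaperone of steroid receptors, read 10.57, 10.83, 10.63 and 10.51 in NAC and 10.69, 10.76 and 10.79 in vehicle. The groups overlapped in both genes.

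Of 22 measured androgen-induced genes outside the 8, 15 had fold changes above 0 and 7 below (median 0.03, range -0.13 to 0.38), and 0 passed. Steap4, a metalloreductase of the cell surface, had the largest and read 7.69, 8.43, 7.89 and 8.07 in NAC and 7.42, 8.18 and 7.33 in vehicle. Its vehicle replicate 2 was above 3 of the 4 NAC arrays, and the fold change of 0.38 had an SE of 0.25. Map7, a microtubule-binding protein, was the lowest at -0.13.

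Of 12 other measured genes of prostate epithelium, 8 had fold changes above 0 and 4 below (median 0.07, range -1.99 to 0.47), and 0 passed. Mmp7, the secreted protease matrilysin, read 12.02, 11.50, 12.03 and 11.62 in NAC and 11.48, 11.30 and 11.17 in vehicle, a fold change of 0.47 with every NAC array above every vehicle array (unadjusted p = 0.0186, limma adjusted p = 0.827). Ceacam10, a secreted protein also made by the seminal vesicle, read 7.73, 10.53, 9.25 and 10.56 in NAC and 11.32, 11.40 and 11.82 in vehicle, a fold change of -1.99 with every NAC array lower. Spink1, a trypsin inhibitor of the same secretion in mice, read 9.97, 11.47, 10.55 and 11.44 in NAC and 11.43, 11.85 and 12.36 in vehicle. Ceacam10 and Spink1 were lowest on NAC replicate 1, where 7 of the 8 seminal vesicle genes also had their lowest value. The part of seminal vesicle RNA in these differences was not tested.

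**Figure D5:**
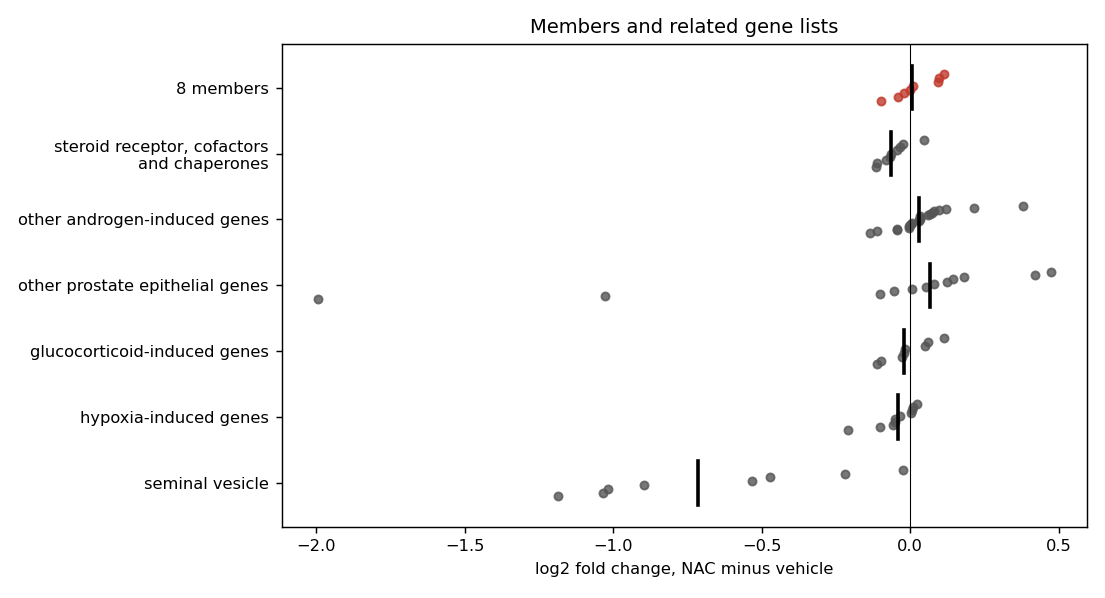
Fold change (horizontal axis, NAC minus vehicle, log2) of every measured gene in 7 lists (vertical axis), with the 8 androgen-regulated genes in red at the top. Points are genes, spread vertically for sight only, and bars are list medians; the 8 genes lie within -0.10 to 0.11, while the seminal vesicle genes have a median of -0.71.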

How the data were processed

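Whole-tissue RNA of Nkx3.1-/- prostates was read on microarrays, 1 mouse each. The deposited log2 values had been background-corrected by RMA, quantile-normalized and summarized by median polish by the authors, with the Affy package. The tools affy, RMA and limma stand in the submitters' processing notes with no version. Groups and replicate numbers came from the labels, and 1 vehicle mouse has no array here. Of 20696 probe sets, 18950 name 1 gene, 678 several and 1068 none in the annotation table used; only the first were kept, symbols were updated by Entrez identifier for 18910, and 18938 genes remained. The table has 0 value columns without a sample.

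NAC was compared with vehicle in limma 3.58.1 under R 4.3.3 (lmFit and eBayes, two-sided, no covariates, Benjamini-Hochberg adjusted p under 0.05 over all genes). The test was checked on simulated data. The 8 genes and the gene lists were chosen with earlier results of these data known. Per list, at most 4 genes of lowest unadjusted p were eligible for naming; other genes were named after their values were seen. Likeness was Pearson's r over genes spanning at least 0.5. The values given are the highest of 1758 genes over 7 arrays and carry no test. P-values measure the spread between single mice. Signal over background cannot be seen in summarized values, and 7 arrays limit precision. Promoters came from RefSeq (GRCm38.p6).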

Additional observations from a re-analysis of the deposited data

Results flagged for a closer look

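Of 60 genes examined for a NAC array that stands apart from the other 3 of its group, 8 had a gap to the nearest array that took up most of the group's range (Dixon's test at the 95% level), 2 of them among the 8 genes. Chance alone gives some such gaps in a set of this size. Fkbp5 was low on NAC replicate 1 (9.39), and so was Zbtb16 (11.46). NAC replicate 2 stood apart in Ndrg1 (8.73), where the gap is in the last digits of otherwise identical values, and in Adm (7.12, low). It also did so in the neutrophil genes Mmp8 (5.49, high) and Retnlg (5.68, high). Those genes were examined only for their likeness to Ndrg1, which differs on that array alone, so their flags there follow from the choice. NAC replicate 4 stood apart in Trpm8, a cold-sensing channel (5.05, high), and in Fkbp2 (12.10, low). Trpm8, Mmp8 and Retnlg are dim genes, below the array medians of 7.16 to 7.20 on every array. None of the 8 was on NAC replicate 3.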

How the results depend on the processing

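Each of the 8 genes was fitted under 15 alternatives (array weights, a variance trend with robust fit, quantile normalization again, array medians subtracted, the median over probe sets, all probe sets, dim genes left out, a replicate block and each array left out in turn). Of 120 values, 111 kept their direction (or stood at 0, as Tgm4 must after quantile normalization again, being the top value of every array) and 0 passed the adjusted test (smallest adjusted p = 0.667). Part of that count was fixed in advance. The variance trend, the dim genes left out, the median over probe sets and all probe sets leave each fold change of the 8 genes as in the main fit. The replicate block repeats the fold changes of the fit without NAC replicate 3. Msmb turned to 0.0010 with array weights and to 0.067 with the replicate block, and Ndrg1 to -0.00073 with array medians subtracted. With 1 array left out Msmb ran from -0.18 to 0.074, Fkbp5 from -0.068 to 0.23 and Hoxb13 from -0.032 to 0.034. Over all genes 0 to 1 passed, the 1 without NAC replicate 4. Of the 8 genes, 1 to 3 did not overlap, the 3 without NAC replicate 1, where 6.29% of all genes did not. There Tgm4 was at most 13.987 in NAC and at least 13.99 in vehicle, and Fkbp5 at least 9.841 and at most 9.821. The cause of these changes was not tested. Azgp1 kept an unadjusted p under 0.05 in 13 of the 15 alternatives (fold changes over all 15 from -0.11 to -0.066). These 13 include the settings that leave its fold change as in the main fit.

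Same-numbered mice of the 2 groups deviated together with r of 0.212, 0.286 and -0.067. Mice of different numbers gave r from -0.271 to 0.21. These values do not settle whether the numbers mark pairs. The main fit did not take them as pairs, and a replicate block was fitted as an alternative. In the replicate block fit, without NAC replicate 3, 0 genes passed and Tmprss2 stood at 0.18 (unadjusted p = 0.021, limma adjusted p = 0.794).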
